A study of Mus musculus with 12 samples.

Results

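RNA of endothelial cells from mouse lung (MLECs) was sequenced in 12 libraries, 6 of CTR and 6 of dKO mice, and the 10 genes described here are the contractile and endothelial-mesenchymal transition genes of that experiment, out of 28689 genes in the table. The 10 were chosen by name, for what they are known to do, with earlier results of these data known. They are the 4 contractile genes Acta2, Tagln, Cnn1 and Myh11 and the 6 transition genes Snai1, Snai2, Twist1, Zeb1, Zeb2 and Cdh2. The dKO mice were VE-CAD-CreERT2+/Sp1fl/fl/Sp3fl/fl, in which the VE-cadherin promoter drives a tamoxifen-inducible Cre in endothelial cells and removes the transcription factors Sp1 and Sp3. The CTR mice were Cre-negative littermates (VE-CAD-CreERT2-/Sp1fl/fl/Sp3fl/fl, given as WT in the labels), and both groups received tamoxifen. The study's reporting summary gives its mice as male and aged 6 to 8 weeks; the age at which these cells were taken and the number of mice behind each library are not given in the sources used here, so p-values measure only the spread between these libraries. The cells were picked with beads against CD31 and then ICAM2 and grown in culture for a few passages, and other cell types can remain among them.

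Smooth muscle cells contract through actin and myosin filaments, and their contractile genes are switched on together by serum response factor (SRF) with its partners myocardin and the myocardin-related factors, which bind a DNA element called the CArG box. In endothelial-mesenchymal transition, endothelial cells lose junctions between cells and take on contractile and matrix genes. Its best-known drivers are the Snail, Twist and ZEB factors, which bind E-boxes in DNA and are known for silencing epithelial and endothelial junction genes. Sp1 and Sp3 bind GC boxes, which lie in many promoters.

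The 250 bases before the annotated start are shown for 3 members because they differ in which of these elements they hold (RefSeq, GRCm38.p6). Capitals mark CArG boxes with 1 changed central base in Acta2 and a GC box (GGGCGG or its complement CCGCCC) in Twist1. The Cnn1 stretch is shown as one with neither. The windows are chr19:34255374-34255623 on the minus strand for Acta2, chr9:22099003-22099252 on the plus strand for Cnn1 and chr12:33957421-33957670 on the plus strand for Twist1.
Acta2: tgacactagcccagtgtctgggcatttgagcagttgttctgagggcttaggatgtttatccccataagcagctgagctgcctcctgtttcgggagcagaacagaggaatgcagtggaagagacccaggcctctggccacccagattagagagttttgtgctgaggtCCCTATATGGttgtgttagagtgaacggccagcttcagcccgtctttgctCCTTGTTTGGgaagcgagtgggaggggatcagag
Cnn1: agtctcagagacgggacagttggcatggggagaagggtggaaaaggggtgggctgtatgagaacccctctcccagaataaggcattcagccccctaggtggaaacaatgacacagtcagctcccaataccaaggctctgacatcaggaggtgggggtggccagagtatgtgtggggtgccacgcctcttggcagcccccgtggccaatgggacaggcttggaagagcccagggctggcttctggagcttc
Twist1: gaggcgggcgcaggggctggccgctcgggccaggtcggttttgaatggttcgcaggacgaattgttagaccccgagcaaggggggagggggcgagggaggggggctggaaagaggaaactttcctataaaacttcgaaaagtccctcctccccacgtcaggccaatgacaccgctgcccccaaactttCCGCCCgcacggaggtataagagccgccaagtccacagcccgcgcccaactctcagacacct
The Acta2 elements begin 84 and 34 bases before the start, and the Twist1 GC box begins 62 bases before it. A CArG box with 1 changed central base was found in 7.24% of the 32851 promoters of the table, an unchanged CArG box in 1.47% and a GC box in 32.7%, both strands counted. Members matched in that table were Acta2, Cnn1, Snai1, Twist1 and Zeb2, or 5 of 10. Of these, Snai1 held neither a CArG box nor a GC box in its 250 bases, and Zeb2 held a GC box before 3 of its 4 annotated starts. The Zeb2 boxes at 122 and 148 bases are the same box, seen in overlapping windows. The E-box (CANNTG), at 66.2% of promoters, was found 3 times before Acta2 and 1 time each before Cnn1 and Snai1. The letters alone do not show that a factor binds there.

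Expression was given as FPKM, fragments scaled to gene length and to the fragments of the library, and differences were tested with limma on log2(FPKM + 1), with p adjusted by Benjamini-Hochberg over all 12467 genes at 1 FPKM or more in at least 6 libraries. By totals recovered from the FPKM values, each library held between 15523054 and 17938286 fragments on genes. Sp1 had 21.2 ± 1.77 FPKM in CTR and 10.6 ± 1.53 in dKO (SD, n = 6), no dKO library reached the lowest CTR library, and the log2 difference was -0.95 (adjusted p = 5.68e-06). Sp3 had 27.7 ± 2.31 and 25.0 ± 1.64 FPKM, and its difference did not pass the test (adjusted p = 0.0902), though it did in 3 of 26 alternatives: without CTR replicate 6 (adjusted p = 0.0326), as TPM (adjusted p = 0.0496) and with array weights (adjusted p = 0.0390). Of the 12467 genes, 53.1% had an adjusted p under 0.05, 20.4% higher and 32.6% lower in dKO, and the median difference of all genes was -0.10 on the log2 scale. Rescaling the libraries by the median of ratios moved the higher share of the called genes from 38.5% to 50.9%.

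Of the 10 members, 9 were tested and 2 passed, or 22.2% against the background of 53.1%. Myh11 was higher and Zeb1 lower in dKO. No member had groups that did not overlap, which 27.4% of tested genes had, and none passed an adjusted p under 0.05 together with an absolute log2 difference over 1.5, which 1.98% of tested genes did. The median difference of the 9 members was -0.18.

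In CTR libraries the members ran from Acta2, at 773 FPKM and above 99.9% of genes in the table, down to Tagln at 0.849 FPKM. Below Acta2 came Snai1, Zeb2, Snai2, Zeb1, Cnn1, Cdh2, Myh11, Twist1 and Tagln. Neighbours whose library ranges overlapped were Zeb2 and Snai2, each pair in the run from Zeb1 to Myh11, and Twist1 and Tagln. In dKO the order was Acta2, Snai1, Zeb2, Snai2, Cdh2, Myh11, Zeb1, Cnn1, Twist1 and Tagln. Each pair in the run from Zeb2 to Cnn1 overlapped there, and so did Twist1 and Tagln.

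Acta2 encodes smooth muscle α-actin, the actin of the contractile filament (chr19:34217737-34232990 in GRCm39, minus strand). In CTR libraries it ran from 409 through a median of 705 to 1330 FPKM, and in dKO libraries from 362 through a median of 492 to 781 FPKM. The groups overlapped, with 2 dKO libraries below every CTR library and 5 of 6 below the CTR median. The log2 difference dKO minus CTR was -0.52 (SE 0.26, 95% interval -1.08 to 0.03, limma adjusted p = 0.102; exact permutation p = 0.0996). The difference passed without CTR replicate 4 (-0.69, adjusted p = 0.0242) and without dKO replicate 1 (-0.65, adjusted p = 0.0449). Actin genes share near-identical coding sequence, so the split of fragments between them is uncertain, and 9.33% of the annotated exon bases of Acta2 also lie in Stambpl1 on the opposite strand.

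Cnn1 encodes calponin, an actin-binding protein that restrains the myosin motor. It ran from 1.97 through 5.82 to 15.3 FPKM in CTR and from 2.2 through 3.83 to 8.5 FPKM in dKO. The CTR range held every dKO library. The difference dKO minus CTR was -0.54 on the log2 scale (SE 0.39, 95% interval -1.38 to 0.30, adjusted p = 0.258). The highest CTR library stood 7.76 times above the lowest, the widest such ratio among the members in CTR. Of its exon bases, 35.1% also lie in Elof1 on the opposite strand.

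Myh11, the smooth muscle myosin heavy chain and the motor of the contractile filament, was the contractile member that rose (chr16:14012399-14109236, minus strand). CTR libraries ran from 4.01 through 5.02 to 6.81 FPKM and dKO libraries from 6.08 through 7.91 to 10.8 FPKM. All 6 dKO libraries stood above the CTR median and 4 stood above every CTR library. On the log2 scale the difference was 0.57 (SE 0.14, 95% interval 0.26 to 0.88, adjusted p = 0.00529; exact permutation p = 0.00866). It passed in all 26 alternatives, at 0.49 to 0.66, and none of its exon bases lie in another annotated gene.

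Tagln encodes SM22α, an actin-bundling protein and an early smooth muscle marker. It was at 0.577 to 1.25 FPKM in CTR (median 0.757) and 0.252 to 1.36 FPKM in dKO (median 0.529), or 9 to 42 fragments a library. Too few libraries reached 1 FPKM (3 of 12) for it to be tested with the other genes. The groups overlapped, and the log2 difference of -0.20 had p = 0.238 by the exact permutation test. Of its annotated exon bases, 60.7% also lie in Gm48529 and 6.02% in Pcsk7, both on the opposite strand. How the counting treated strand and shared bases is not given in the sources used here, and what that did to the Tagln level was not tested.

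**Figure D1:**
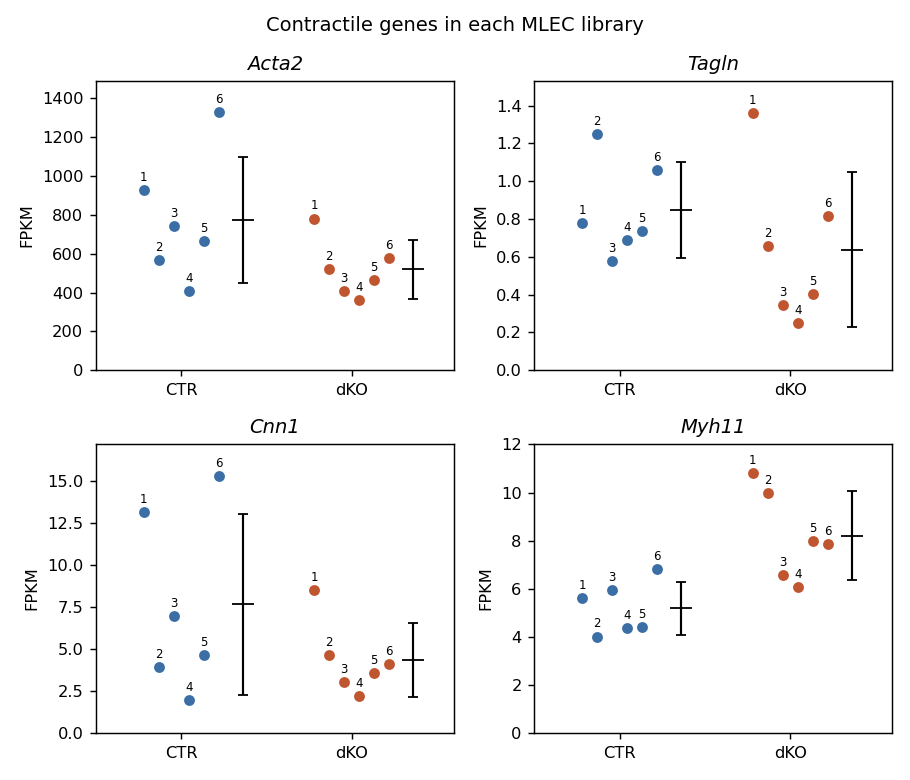
FPKM of the 4 contractile genes in each library (y axis, linear, from 0), CTR in blue and dKO in orange, numbered by replicate; the horizontal mark and bar give the group mean ± SD (n = 6). The 6 dKO libraries of Myh11 lie above the CTR median, 4 of them above every CTR library, the groups overlap more widely for Acta2, Cnn1 and Tagln, and dKO replicate 1 is highest and dKO replicate 4 lowest of the dKO libraries in all 4 panels.

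Within a library, Acta2 and Myh11 did not keep their proportion. The ratio of Acta2 to Myh11 FPKM ran from 94.0 through 146 to 195 in CTR and from 52.0 through 60.6 to 73.8 in dKO, so each dKO library stood below each CTR library. Its log2 difference was -1.18 (SDs of 0.36 in CTR and 0.19 in dKO; exact permutation p = 0.00216, the smallest that 12 libraries in 6 and 6 allow, adjusted p = 0.00648 over the 3 pairs of Acta2, Cnn1 and Myh11). Such a ratio does not depend on how libraries are scaled, and shows unequal change only. The ratio of Cnn1 to Myh11 had medians of 1.11 in CTR and 0.465 in dKO, a log2 difference of -1.27 with overlapping groups (exact permutation p = 0.0108, adjusted p = 0.0162). For Acta2 to Cnn1 the medians were 125 and 132, and the log2 difference of 0.09 was within the spread of the libraries (exact permutation p = 0.736, unchanged by the adjustment). These 3 ratios were added after the values had been seen.

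Acta2 and Cnn1 varied widely among libraries of one group. The within-group SD of Acta2 was 0.50 on the log2 scale and that of Cnn1 was 0.76, above 95.8% and 99.1% of tested genes, against a median of 0.17. CTR replicate 6 was the highest CTR library for 3 of the 4 contractile members, and CTR replicate 4 was the lowest for 2, but Tagln was highest in CTR replicate 2 and Myh11 was lowest there. In dKO, replicate 1 was highest and replicate 4 lowest for all 4.

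To find the genes whose library-to-library profile was most like that of Acta2, values were centred on each group's mean and divided by the within-group SD, and genes were ranked by the root-mean-square difference over the 12 libraries. The nearest of 12466 genes were Pdlim7, an actin-associated adaptor, Myl9, the smooth muscle myosin light chain, Cdkn1a, a cell cycle inhibitor, Mif, a cytokine, and Ccn2, a matricellular growth factor, at 0.17 to 0.20. Cnn1 ranked 12 and Myh11 863. Of the transition members, Twist1 ranked 1606, Cdh2 3441, Snai2 6234, Snai1 6449, Zeb1 9415 and Zeb2 10913. The other contractile genes lay partly near the top of the order and partly far down. Lmod1 ranked 45, Tpm1 70, Actg2 136, Cald1 214, Cnn3 384, Tpm2 583, Cnn2 854 and Tagln2 1091. Further down, Des ranked 2123, Csrp1 4691, Smtn 6348, Ppp1r12b 7341, Synpo2 8730 and Itga8 10564. Mylk, the kinase that activates smooth muscle myosin, ranked 12221, and Ppp1r14a, an inhibitor of myosin phosphatase, ranked 12127. Both ran opposite to Acta2, lowest in CTR replicate 6 and dKO replicate 1 and highest in CTR replicate 4 and dKO replicate 4. The points share their library and its scaling, and the profile is a description of these 12 libraries. Genes alike in profile differed in direction between the groups: Myl9 was lower in dKO at -0.61, while Cdkn1a (0.98, adjusted p = 0.000246) and Ccn2 (1.5, adjusted p = 0.00311) were higher.

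**Figure D2:**
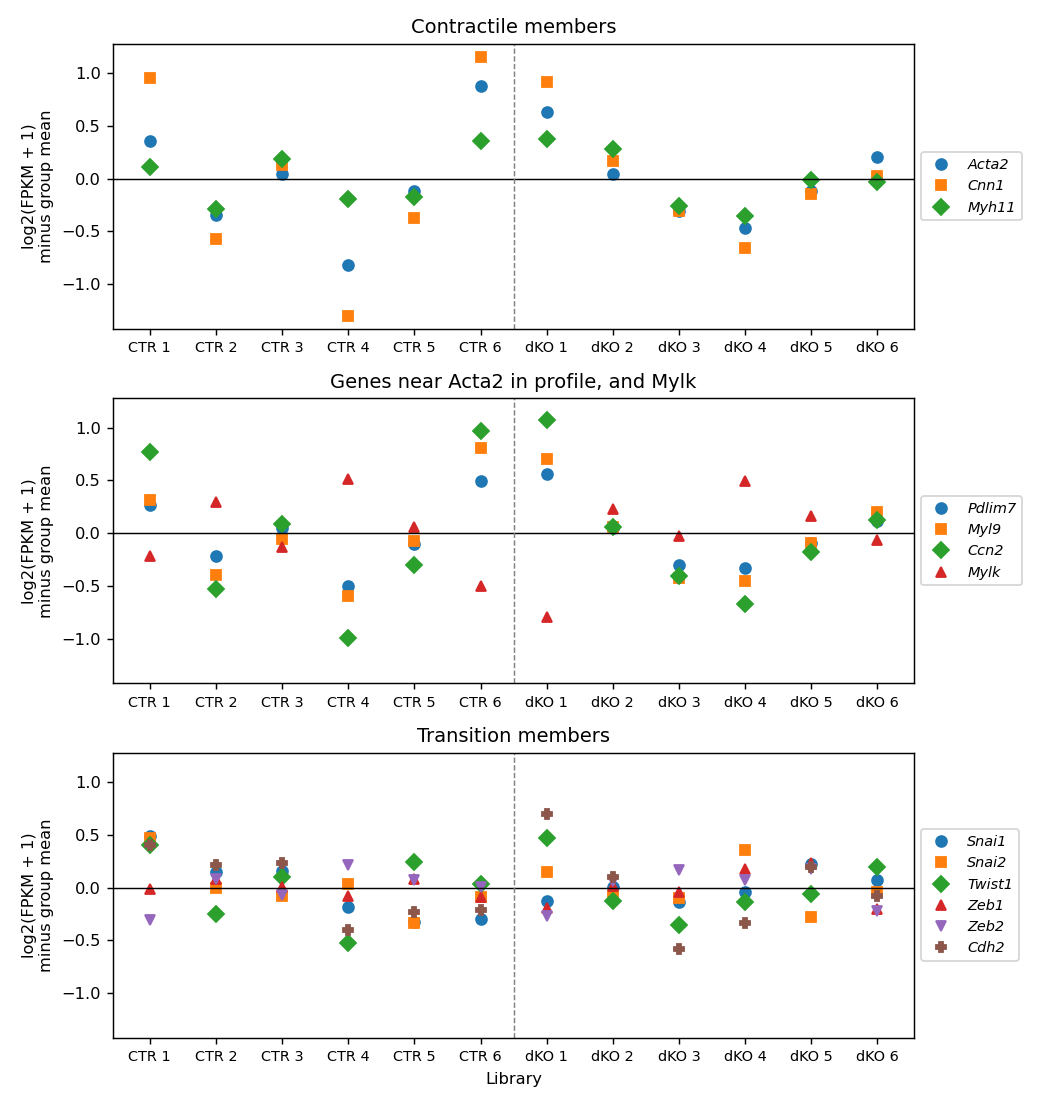
log2(FPKM + 1) minus the mean of the library's own group (y axis), for each of the 12 libraries (x axis), in 3 panels of named genes. Acta2, Cnn1, Pdlim7, Myl9 and Ccn2 are high in CTR replicate 6 and dKO replicate 1 and low in CTR replicate 4 and dKO replicate 4, and Mylk runs opposite. The transition genes do not share that order in full, though Twist1 and Cdh2 are lowest of CTR in replicate 4 and highest of dKO in replicate 1.

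Among the Snail factors, Snai1 was the most abundant transition gene. It ran from 32.7 through 40.9 to 58.0 FPKM in CTR and from 34.7 through 37.7 to 44.8 FPKM in dKO, with all dKO libraries inside the CTR range. The log2 difference was -0.11 (SE 0.13, 95% interval -0.39 to 0.18, adjusted p = 0.514). Snai2, the factor also called Slug, ran from 11 through 13.8 to 20.1 FPKM in CTR and from 10 through 11.8 to 16.1 FPKM in dKO. Its log2 difference was -0.18 (SE 0.13, 95% interval -0.47 to 0.10, adjusted p = 0.250). CTR replicate 1 was the highest CTR library for both.

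Twist1, a basic helix-loop-helix factor of mesoderm, was low, with 11 to 52 fragments a library. It ran from 0.492 through 1.24 to 1.83 FPKM in CTR and from 0.385 through 0.664 to 1.46 FPKM in dKO. The groups overlapped, with 5 of 6 dKO libraries below the CTR median. On the log2 scale it differed by -0.28 (SE 0.17, 95% interval -0.64 to 0.09, adjusted p = 0.186), and with a weight fitted to each library it was -0.39 (adjusted p = 0.0204).

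Zeb1, a zinc finger and homeodomain factor that represses junction genes, was the transition member that fell. It ran from 9 through 9.65 to 10.3 FPKM in CTR and from 6.61 through 7.66 to 9.28 FPKM in dKO. All 6 dKO libraries stood below the CTR median and 5 stood below every CTR library. The log2 difference was -0.29 (SE 0.08, 95% interval -0.46 to -0.11, adjusted p = 0.0106; exact permutation p = 0.00866). It passed in 25 of 26 alternatives, and with median-of-ratios scaling it was -0.21 (adjusted p = 0.0672). The CTR libraries of Zeb1 were close to each other, the highest 1.14 times the lowest.

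Zeb2, the paralog of Zeb1, ran from 13.2 through 17.1 to 19.3 FPKM in CTR and from 11.9 through 15.3 to 16.6 FPKM in dKO. All 6 dKO libraries were below the CTR median, but only 2 were below every CTR library. The log2 difference was -0.18 (SE 0.10, 95% interval -0.40 to 0.04, adjusted p = 0.160). Whether Zeb1 and Zeb2 differed in their response was not tested.

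Cdh2 encodes N-cadherin, the cadherin gained in mesenchymal transition, which endothelial cells also carry. It ran from 5.07 through 7.12 to 9.63 FPKM in CTR and from 5.41 through 8.65 to 14.5 FPKM in dKO. The 2 highest dKO libraries stood above every CTR library and the rest overlapped. The log2 difference was 0.25 (SE 0.20, 95% interval -0.18 to 0.69, adjusted p = 0.302).

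**Figure D3:**
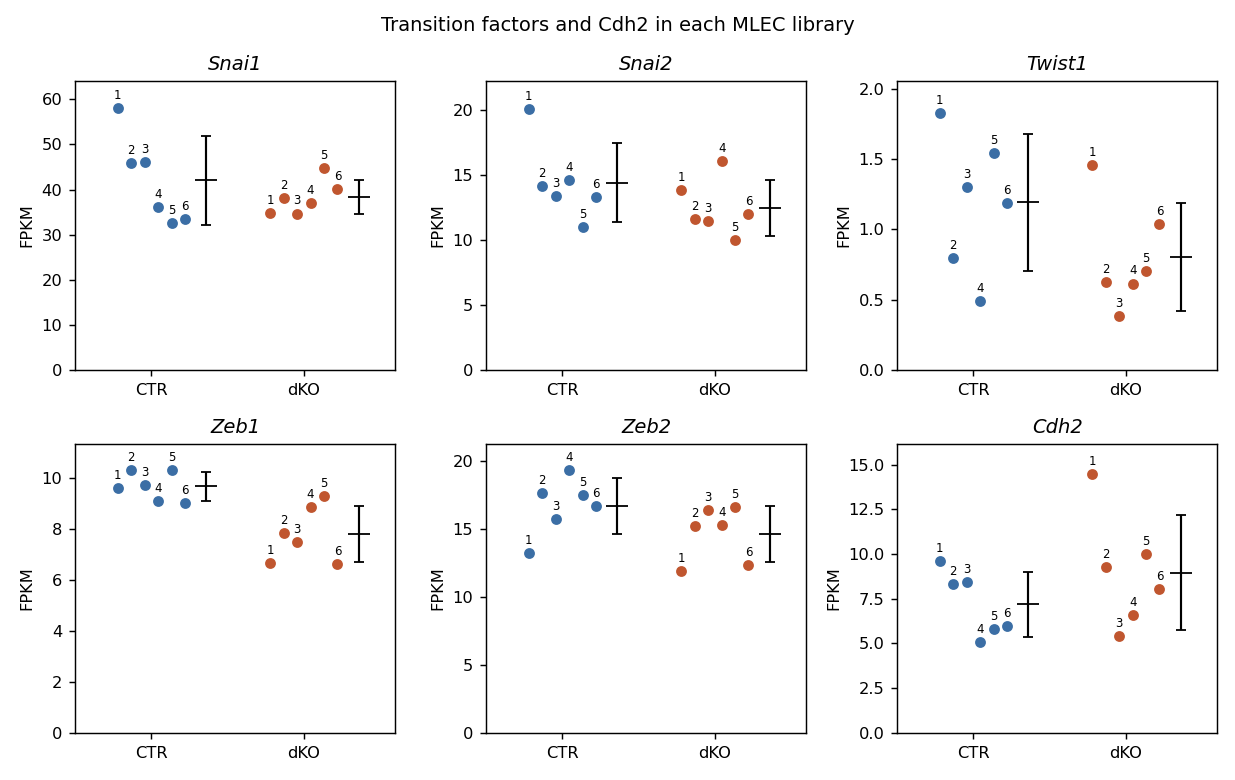
FPKM of the 6 transition genes in each library (y axis, linear, from 0), CTR in blue and dKO in orange, numbered by replicate; the horizontal mark and bar give the group mean ± SD (n = 6). For Zeb1, 5 of the 6 dKO libraries lie below every CTR library, and the groups overlap more widely for the other 5 genes.

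By the same measure of likeness, the genes nearest to Zeb1 were Tnfsf11, a cytokine of bone and immune cells, Akap11, an anchor of protein kinase A, Man2a1, a Golgi mannosidase, Tcf4, an E-protein that binds E-boxes, and Npat, a regulator of histone genes, at 0.41 to 0.43. They were further from Zeb1 than the nearest genes were from Acta2. Zeb2 ranked 1033 and Snai1 3301 of 12466 genes by likeness to Zeb1.

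Of 19 other contractile and actin-cytoskeleton genes, 18 were tested, 3 were higher, 1 was lower and 14 did not pass, with a median difference of 0.01. That is 22.2% called, against 53.1% of all tested genes. Itga8, an integrin of smooth muscle and pericytes, rose from 14.7 ± 4.39 to 26.9 ± 8.01 FPKM (0.82, SE 0.23, adjusted p = 0.00852). Synpo2, an actin-bundling protein of muscle, was at 0.644 ± 0.0667 FPKM in CTR and 1.66 ± 0.406 in dKO, with no overlap between groups (0.68, SE 0.10, adjusted p = 8.39e-05). It reached 1 FPKM in the 6 dKO libraries and no CTR library, so it entered the test only through the group where it is high, and its place in the count is no support for a change of the list. Csrp1, a LIM protein and the most abundant gene of the list, was higher by a smaller amount (0.22, adjusted p = 0.0424) that passed in 15 of 26 alternatives, and with 1 library left out only without CTR replicate 1, 4 or 6 or dKO replicate 3 or 5. Myl9 was the one that was lower (-0.61, SE 0.24, adjusted p = 0.0466). It passed in 14 of 26, and with 1 library left out it passed only without CTR replicate 2, CTR replicate 4 or dKO replicate 1. The abundant Tagln2, a relative of Tagln (205 ± 36.6 and 229 ± 41.1 FPKM), and Tpm1, a tropomyosin (152 ± 32.3 and 151 ± 28.6 FPKM), did not pass.

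Of SRF and its partners, 2 of 3 tested were higher, or 66.7%, against 20.4% of all tested genes. Mrtfa and Mrtfb, the myocardin-related factors that carry actin signals to SRF, rose at 0.43 (SE 0.13, adjusted p = 0.0166) and 0.32 (SE 0.07, adjusted p = 0.00186). Srf itself was at 13.8 ± 1.58 FPKM in CTR and 11.9 ± 1.83 in dKO (-0.20, adjusted p = 0.0992), and its difference passed in 4 of 26 alternatives: without dKO replicate 1 (-0.27, adjusted p = 0.0163), as TPM, with array weights and with the replicate block. Myocd, which encodes myocardin, was below the filter, at 0.365 to 0.840 FPKM in CTR and 0.998 to 2.06 FPKM in dKO, with no overlap (exact permutation p = 0.00216, unadjusted).

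Of 10 other transition factors, 5 were tested, 2 were higher and 2 lower. The share called was 80.0%, against 53.1% of all tested genes. Foxc2, a forkhead factor of lymphatic vessels, was at 0.777 ± 0.233 FPKM in CTR and 1.44 ± 0.230 in dKO (0.46, adjusted p = 0.00174), and it entered the test through the dKO libraries, since only 1 CTR library reached 1 FPKM. Sox9, a factor of cartilage and progenitors, was higher at 0.40 (adjusted p = 0.00695). Tcf3, an E-protein, fell from 22.6 ± 2.12 to 16.2 ± 1.51 FPKM with no overlap (-0.45, adjusted p = 0.000362), and Prrx1, a homeobox factor of mesenchyme, fell at -0.35 (adjusted p = 0.0177, and 0.0559 with median-of-ratios scaling). Tcf4 was at 10.9 ± 0.427 and 10.4 ± 1.16 FPKM and did not pass. Snai3, Twist2, Foxc1, Klf8 and Gsc were below the filter. Klf8, a Krüppel-like factor, was at 0.477 to 0.781 FPKM in CTR and 0.214 to 0.359 FPKM in dKO, with no overlap (exact permutation p = 0.00216, unadjusted).

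Of 12 mesenchymal markers, 11 were tested, 2 were higher and 2 lower, with a median difference of 0.04. Called genes made up 36.4%, against 53.1% of all tested genes. Ccn2 rose from 63.0 ± 33.3 to 174 ± 85.1 FPKM (1.5, SE 0.35), with 36.5% of its exon bases also in Gm15270 on the opposite strand, and Cd44, the hyaluronan receptor, from 28.7 ± 7.41 to 62.5 ± 14.9 FPKM with no overlap (1.10, adjusted p = 0.00023). Fap, a protease of activated fibroblasts, fell from 7.77 ± 0.589 to 5.08 ± 0.576 FPKM (-0.53, adjusted p = 7.67e-05), and Cdh11, a mesenchymal cadherin, fell at -0.33 (adjusted p = 0.0149). The most abundant of the list, the matrix genes Sparc and Fn1 and the intermediate filament Vim, did not pass (adjusted p = 0.771, 0.967 and 0.355).

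Of 8 epithelial junction genes, which Snail, ZEB and Twist factors silence, 7 were tested, 2 were higher and none was lower, with a median difference of 0.33. In this list 28.6% were called, against 53.1% of all tested genes, of which 20.4% were higher and 32.6% lower. Epcam, an epithelial adhesion molecule, was at 5.74 ± 0.770 FPKM in CTR and 7.60 ± 1.45 in dKO (0.34, adjusted p = 0.0186). Cldn7, a claudin, was higher at 0.37 (adjusted p = 0.0488), which passed in 12 of 25 alternatives, and with 1 library left out only without CTR replicate 6 or dKO replicate 4, 5 or 6. Cdh1, E-cadherin, was at 7.88 ± 1.73 and 10.4 ± 3.53 FPKM, and its difference of 0.33 did not pass (adjusted p = 0.147). Cldn4, another claudin, had the largest difference of the list and did not pass (0.47, SE 0.23, adjusted p = 0.106), though it did without CTR replicate 6 (0.59) or dKO replicate 4 (0.60).

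**Figure D4:**
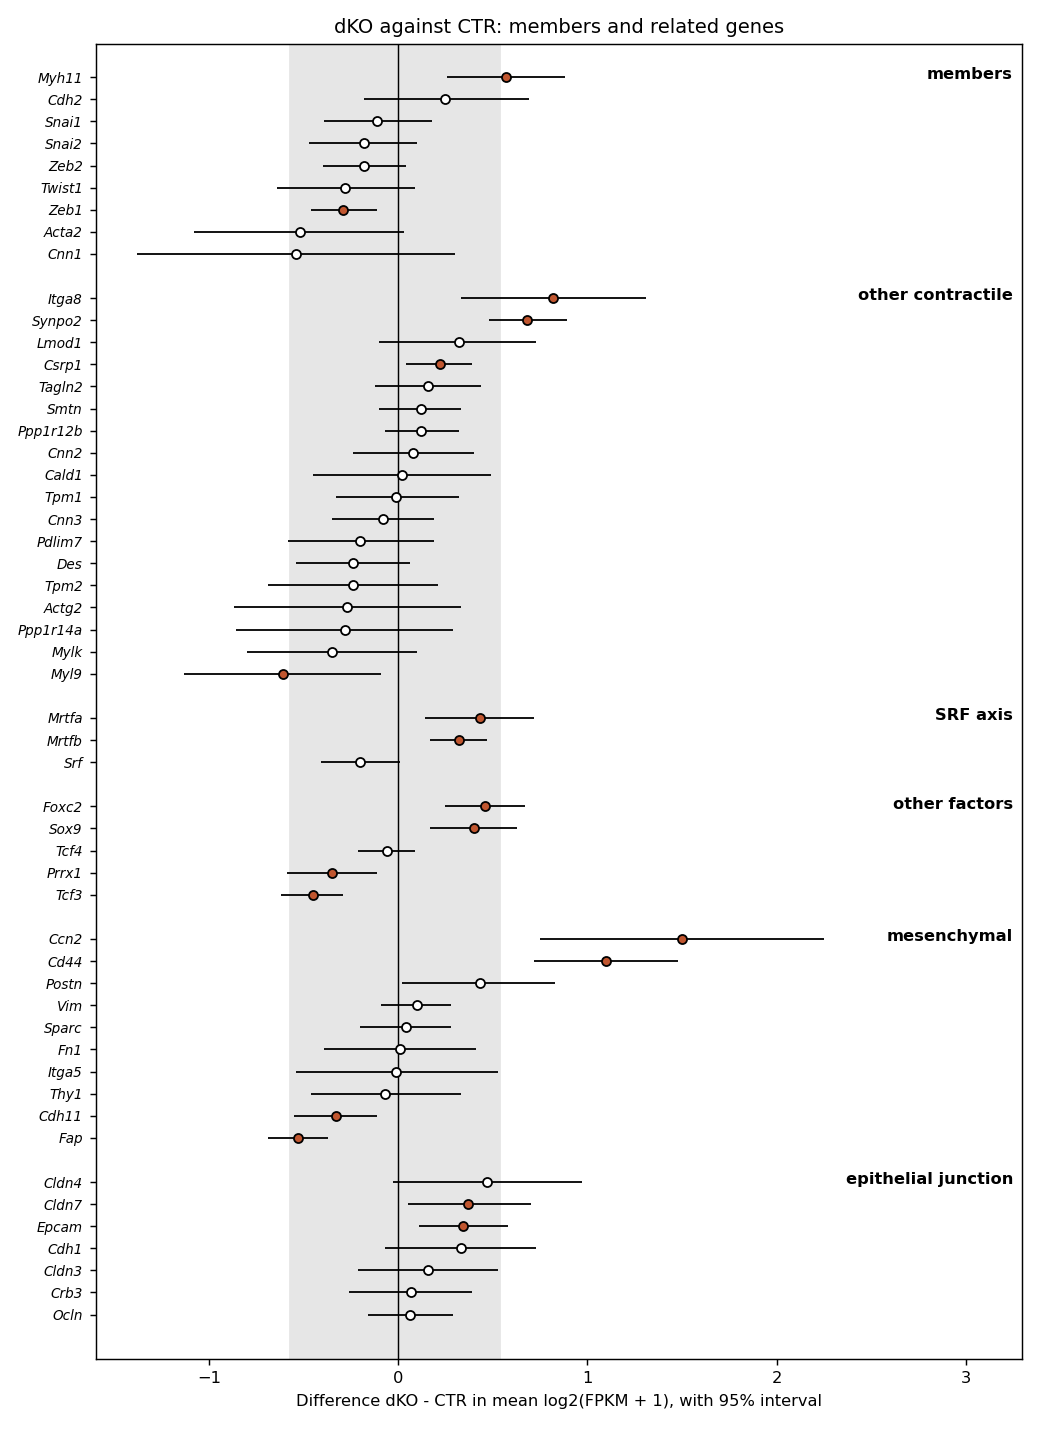
Difference dKO minus CTR in mean log2(FPKM + 1) (x axis) with its 95% interval, for the 9 members tested and the related genes tested, by list, apart from 1 mesenchymal marker that is not shown; filled points have an adjusted p under 0.05, and the grey band holds the tested genes between the 10th and the 90th percentile. Of the members, Myh11 lies to the right of the band's edge at 0.54 and is filled, Zeb1 is filled inside it, and the widest intervals are those of Cnn1 and Acta2.

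The cultures held marker RNA of other cell types, and for some of these types the marker levels differed between the groups. Among all tested genes, 20.4% were higher and 32.6% lower in dKO. Of 12 endothelial markers 11 were higher in dKO (summed FPKM of 221 to 344 in CTR and 403 to 550 in dKO). Of 10 macrophage markers 9 were higher and Marco was lower at -1.91 (sums of 784 to 1330 and 2110 to 4480). Of 7 mesothelial markers 6 were higher (31.1 to 41.6 and 70.0 to 150). Fibroblast markers summed to 2220 to 2930 FPKM in CTR and 916 to 2020 in dKO, with 2 higher and 4 lower of 9 tested. The collagen genes Col1a1, Col1a2 and Col3a1, the most abundant of these markers, were lower, as was Fbln1. Dcn, with the largest difference (1.33), and Npnt were higher. Pericyte markers, the cells nearest to smooth muscle, had 3 higher and 1 lower of 7 tested, and their sums overlapped (122 to 172 and 129 to 173). Lung epithelial markers had 2 higher of 6 tested, and their sums overlapped (126 to 520 and 240 to 393). Other leukocyte markers had 2 higher of 2 tested, and proliferation genes 3 lower of 6. Of the markers counted as higher, Fcgr1 (macrophages) and Rgs5 (pericytes) entered the test through the dKO libraries, where they are high. None of the marker genes in the table was at 0 in all libraries. In bulk RNA, a change in the number of cells of one type and a change of RNA per cell cannot be told apart, and the part of these cells in the values of the members was not tested.

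**Figure D5:**
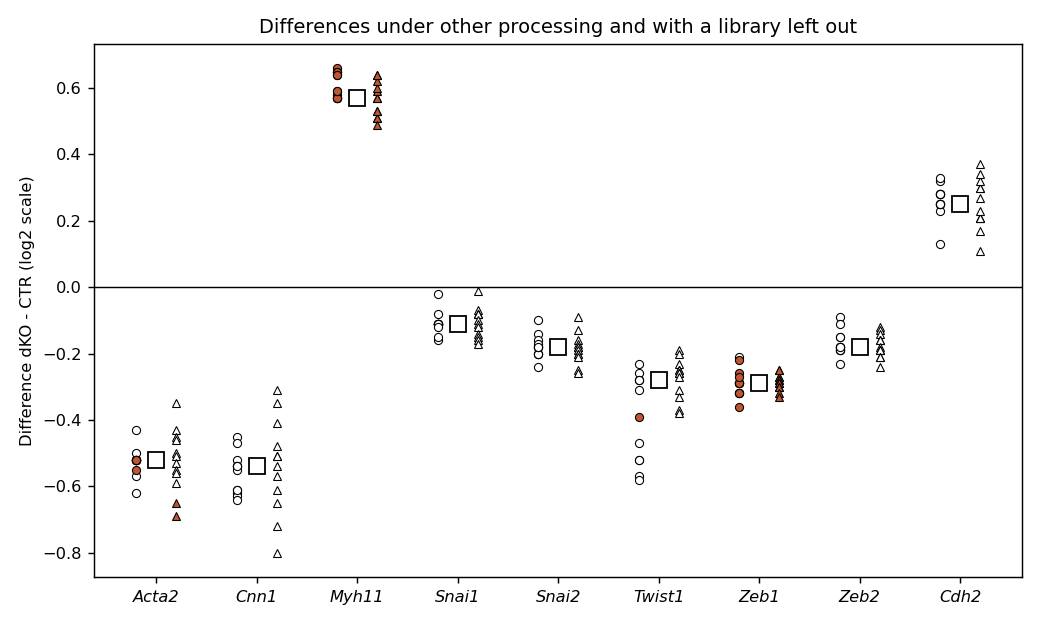
Difference dKO minus CTR for each tested member (y axis, log2 scale) in the reported fit (open squares), under 14 other settings (circles, left) and with each of 12 libraries left out (triangles, right); filled symbols have an adjusted p under 0.05. Myh11 lies between 0.49 and 0.66 and is filled throughout, Zeb1 is filled in all but 1, Acta2 is filled in 4 and Twist1 in 1.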

How the data were processed

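Library columns were matched to samples by group and replicate in the labels; the dKO columns carry the name of tamoxifen, which both groups received. Per the study's methods, the authors used Trimmomatic and STAR on mm39 and retained reads with a single alignment, while the submitters' processing notes name HISAT2, TopHat2 and Bowtie2. The counting program, annotation and strand setting are not given in the sources used here. The labels' extraction text speaks of retinas, unlike the sample titles.

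The authors deposited FPKM values. Whole fragment numbers were recovered from them for 100% of 28689 genes, within 0.02 of a fragment, and served for depth and 1 alternative. Where the annotated length did not give whole numbers, other lengths were tried until 1 did, so this share does not measure accuracy. The length used equalled the annotated exon length for 9335 genes. Tests used limma 3.58.1 in R 4.3.3 (lmFit, eBayes with a trend) on log2(FPKM + 1), which understates changes of low genes, and two-sided exact permutation tests over 924 splits. The study's own test needs counts and was replaced. Intervals cover library spread only. Symbols came from GENCODE for 96.6% of genes. Exon overlaps were taken from GRCm39. On simulated data, 47 of 99 genes with a planted log2 difference of 0.6 and 98 of 98 with 2.5 were called, as were 11 of 12367 unchanged genes. The simulation gave all genes the same relative spread, shared no variation within a library and changed few genes. Its shares therefore do not describe genes as variable as Acta2 and Cnn1, or data with as many changed genes as these. The exact p-values are not adjusted unless said.

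The members and lists were chosen with earlier results of these data known. Named genes are the members, Sp1, Sp3, the 3 most abundant genes and the 2 with the largest absolute difference of each related list, and the 5 nearest to Acta2 and to Zeb1. Other related genes named, and the 3 ratios, were chosen after their values were seen. Settings tried were pseudocounts of 0.1 and 0.01, other filters and scalings, robust eBayes, array weights, a replicate block, limma-voom and leaving out each library. Promoter stretches were searched on both strands. 1 mesenchymal marker that the naming rule picks is counted in its list but not reported here.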

Additional observations from a re-analysis of the deposited data

Results flagged for a closer look

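Of 90 groups of 6 libraries checked among the genes named, 2 held a library far from the other 5 by Dixon's test at the 95% level, where chance alone flags about 1 in 20, or 4.5. Both were in dKO replicate 1. Ccn2 stood at 338 FPKM there against 100 to 175 in the other dKO libraries. Epcam stood at 10.3 FPKM against 6.16 to 7.67. None of the 10 members had such a library.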

How the results depend on the processing

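Of the members past an adjusted p under 0.05, there were 2 in the reported fit, 1 with median-of-ratios scaling (Myh11), 4 with array weights (with Acta2 at -0.55, adjusted p = 0.0194, and Twist1) and 2 to 3 with 1 library left out. Genes past an adjusted p under 0.05 numbered 4222 with the filter of 5 FPKM, where fewer genes are tested, and 5858 to 6841 with 1 library left out. Genes past both thresholds numbered 247, and 486 with a pseudocount of 0.1, 525 with 0.01, 793 without a filter and with 0.1, 387 as TPM and 834 with limma-voom, against 231 to 265 with 1 library left out. The cause of these shifts was not tested. Differences near 0 that changed sign were those of Fn1 (-0.04 as TPM, -0.11 with quantile normalization, -0.09 to 0.12 with 1 library left out), Sparc (-0.01 and -0.19, and -0.01 to 0.11), Tpm1 (0.02 with upper-quartile and 0.08 with median-of-ratios scaling, -0.09 to 0.07 with 1 library left out), Tcf4 (0.02 with median-of-ratios scaling) and the ratio of Acta2 to Cnn1 (-0.06 without CTR replicate 1, up to 0.26 without CTR replicate 4). The ratios of Acta2 to Myh11 (-1.30 to -1.09) and Cnn1 to Myh11 (-1.55 to -1.08) kept their calls with each library left out. Exact permutation tests on FPKM itself gave p under 0.05 for Myh11 and Zeb1 only among the 10 members. Whether same-numbered libraries were paired or shared a batch is not given in the sources used here. Their deviations correlated at -0.11 to 0.57, 3 of 6 pairs over 0.1. Of the 6, 2 were closest to their own number, replicates 1 and 4. With the replicate block, 3 members passed (Acta2 at -0.52, adjusted p = 0.0164), 6955 genes passed an adjusted p under 0.05 and 247 both thresholds. Depth limits Tagln and Twist1, at 9 to 52 fragments a library.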
